A study of Mus musculus with 6 samples.

Results

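The genes described here encode 72 core proteins of the cytosolic ribosome, 43 of the large subunit and 29 of the small subunit. They were chosen by gene symbol: names of the form Rpl or Rps plus a number and an optional a, x or y, the stalk genes Rplp0, Rplp1 and Rplp2, and Rpsa. Of 17030 genes in the table, 76 matched, and 4 of these (Rpl22, Rps27, Rpl37 and Rpl39) were left out by the rule. The values of the genes played no part in the choice. All 72 passed the filter on low values, at least 1 FPKM in at least 3 libraries, which kept 11103 genes.

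RNA was sequenced from SCC7, a mouse squamous cell carcinoma line, in 3 irradiated samples labelled as having received radiotherapy and 3 control samples labelled as untreated. The treatment protocol gives 9 Gy, and every sample, irradiated or control, has Day 0 as its time, so how long after irradiation the RNA was taken is not stated. The cells were grown in high-glucose medium with serum, and ribosomal RNA was removed from total RNA before libraries were made. The labels do not say that samples of a group were separate cultures, so the p-values below may rest on technical spread alone.

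The ribosome is built from a small subunit, which decodes mRNA, and a large subunit, which joins amino acids. Its proteins are needed in nearly equal numbers, and their mRNAs are among the most abundant in dividing cells. Most of these mRNAs begin with a pyrimidine-rich stretch, the terminal oligopyrimidine tract, through which mTORC1 and LARP1 control their translation and stability. Several ribosomal proteins also act in the response to stress on ribosome assembly, the best known being Rpl5 and Rpl11, which bind the p53 inhibitor Mdm2.

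Ribosomal protein mRNAs took a smaller share of the transcriptome in irradiated than in control cells. The 72 genes held 18.8%, 19.2% and 19.2% of all FPKM (fragments scaled by transcript length and library total) in irradiated libraries 1 to 3, against 25.8%, 29.6% and 21.3% in control libraries 1 to 3. The irradiated libraries lay close together and below every control, while the controls were spread widely, with control 2 highest and control 3 nearest to the irradiated cells. The median of the 72 genes was 1361, 1451 and 1437 FPKM in irradiated libraries, against 2463, 2929 and 1728 FPKM in controls. In bulk RNA, a change in RNA per cell cannot be told apart from a change in the make-up of the cell population.

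The same order of the controls ran through nearly every gene. Control 2 was above control 1 and control 1 above control 3 in 67 of the 72 genes, an order held by 24.9% of all genes tested. The median SD of log2(FPKM + 1) across replicates was 0.05 in irradiated and 0.42 in control libraries for these 72 genes, and 0.08 and 0.30 over all genes tested. Total FPKM was 652691 to 663489 in irradiated libraries and 693961 to 982553 in controls, so the libraries are not on 1 common total. The read depth behind each value is unknown, since FPKM does not hold it.

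**Figure D1:**
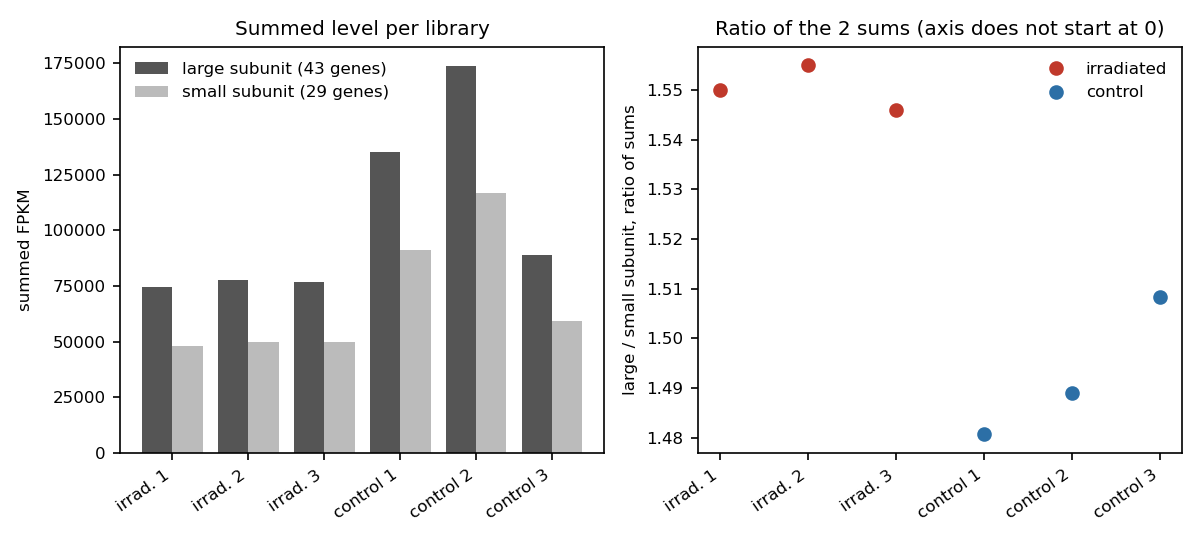
The panels show, for each of the 3 irradiated and 3 control libraries, the summed FPKM of the large and small subunit genes and the ratio of the sums. Both sums are lowest in the irradiated libraries, control 3 is the lowest control, and the ratio is 1.55 in each irradiated library against 1.48 to 1.51 in the controls.

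Of the 72 genes, 15 were lower in irradiated cells at an adjusted p under 0.05 in limma (Benjamini-Hochberg over all genes tested) and 0 were higher. That is 20.8% of the genes, against 2.77% of all genes tested called lower; 9.24% of all genes tested were called higher. Every one of the 57 genes with an unadjusted p under 0.05 was lower in irradiated cells. The share of all genes tested at this unadjusted threshold is not given here. The log2 fold change, irradiated minus control, was negative in 71 of 72 genes (59 after quantile normalization), with a median of -0.73, against 0.17 over all genes tested. The quartiles were -0.94 and -0.62, and 50 of the genes lay within 0.25 of the median. In 60 genes all 3 irradiated libraries lay below all 3 controls, which is 83.3% of the genes, against 13.7% of all genes tested, and in 0 genes did they lie above all controls, against 31.8%.

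The count of calls rests on the number of libraries and on control 3. Leaving out irradiated library 1, 2 or 3, or control 1, left 0 of the 72 genes called lower by limma (28, 30, 28 and 30 genes had an unadjusted p under 0.05). Over all genes tested, 0.0921% to 0.145% were then called lower. Leaving out control 2 left 3 of the 72 called lower, against 0.95% of all genes tested. Without control 3, 70 were called lower, against 23.3% of all genes tested. Against control 3 as the only control, the median of the 72 genes was -0.27, against 0.07 over all genes tested. On average 64 of 72 genes were still lower in irradiated cells, against 41.6% of all genes tested. In 60 genes every irradiated library lay below control 3, an order held by 32.3% of all genes tested. The 15 called genes all belonged to these 60, and their irradiated mean was 0.501 to 0.708 of their control 3 value.

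**Figure D2:**
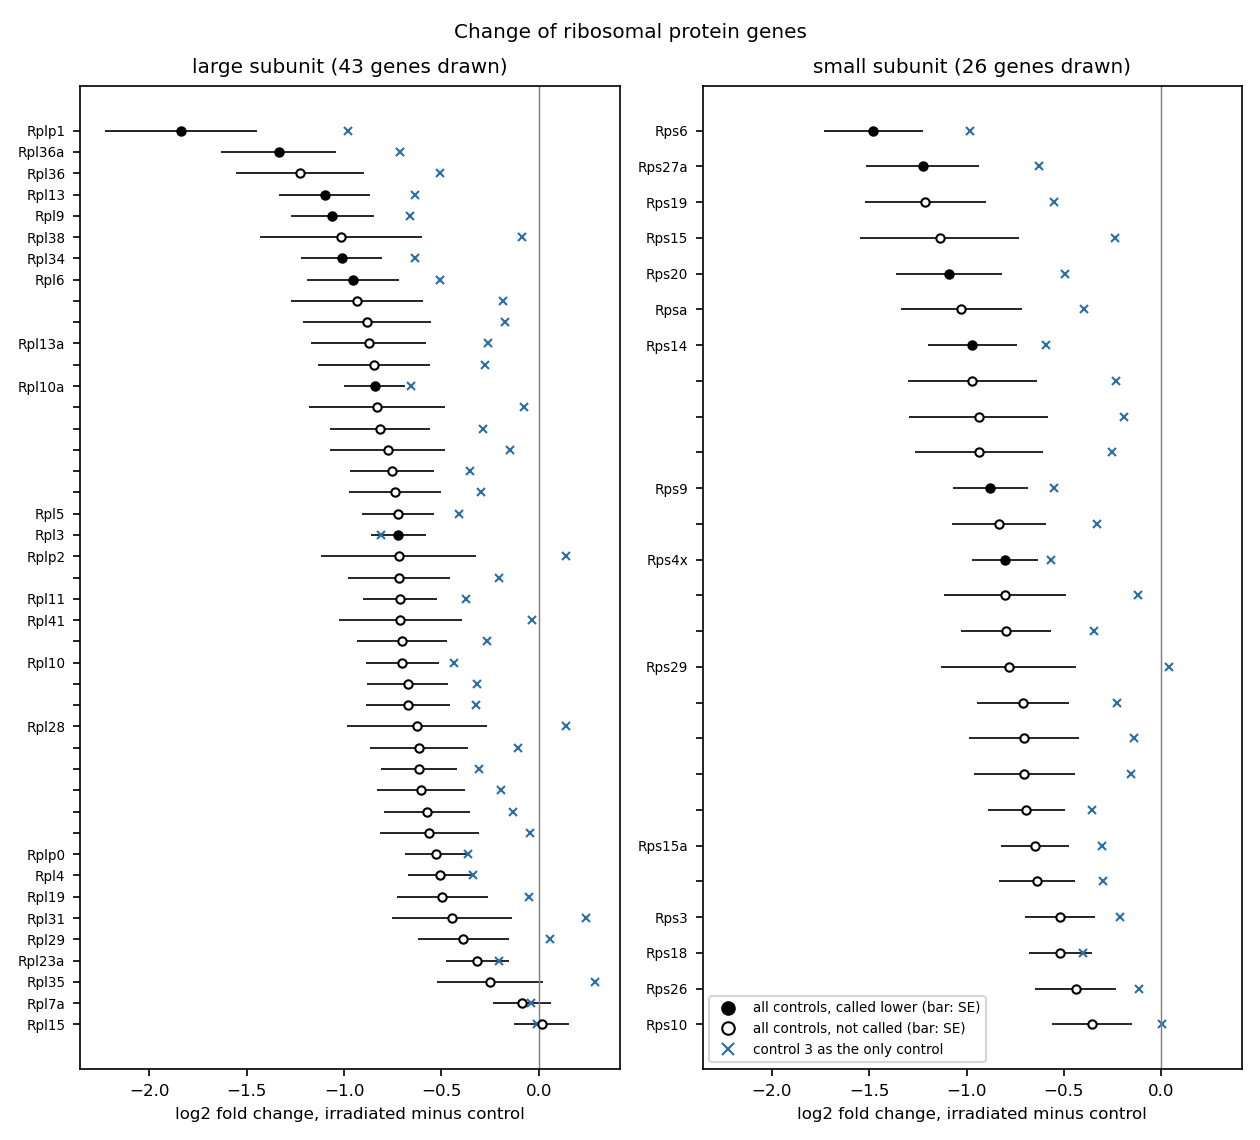
The x axis gives the log2 fold change, irradiated minus control, of 69 ribosomal protein genes by subunit, with bars of 1 SE from limma, filled points for genes called lower and crosses for the value against control 3 alone; genes named in the text are labelled. The values run from -1.84 for Rplp1 to 0.01 for Rpl15, called genes come from both subunits, and most crosses lie nearer to 0 than the points.

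The stalk of the large subunit, which recruits and activates the translation GTPases, is made of Rplp0 and of dimers of the acidic proteins Rplp1 and Rplp2. Rplp1 fell most of the 72 genes, with 1876, 1979 and 1843 FPKM in irradiated libraries against 7302, 11452 and 3745 FPKM in control libraries. All irradiated values were below the lowest control, and the controls themselves spanned a wide range. Its log2 fold change was -1.84 (SE 0.39, n = 3 each; limma adjusted p = 0.0358). Its partner Rplp2 had 2461, 2471 and 2336 FPKM in irradiated libraries against 4158, 6930 and 2197 FPKM in controls, so that control 3 lay below all irradiated libraries and the groups overlapped (-0.72, limma adjusted p = 0.217). Rplp0, which anchors the stalk to the ribosome, had 1806, 1870 and 1813 FPKM in irradiated libraries against 2681, 2910 and 2353 FPKM in controls, below every control but not past the threshold (-0.53, limma adjusted p = 0.0689).

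The order of the 2 stalk partners within a library differed between the groups. The ratio of Rplp1 to Rplp2 was 0.762, 0.801 and 0.789 in irradiated libraries, and 1.76, 1.65 and 1.70 in control libraries. Rplp1 was therefore the lower of the pair in every irradiated library and the higher in every control, control 3 included, and the library total cancels from this ratio. The means were 0.784 ± 0.020 in irradiated and 1.70 ± 0.052 in control libraries (SD, n = 3 each). The exact two-sided permutation p was 0.1, the smallest that 3 against 3 allows, and 0.2 after adjustment over the 4 ratios computed. Rplp1 to Rplp0 was 1.04, 1.06 and 1.02 in irradiated libraries against 2.72, 3.93 and 1.59 in controls (exact permutation p = 0.1), whereas Rplp2 to Rplp0 was 1.36, 1.32 and 1.29 in irradiated libraries against 1.55, 2.38 and 0.934 in controls, which overlap (exact permutation p = 0.7). These ratios were chosen with earlier results of these data known, and that of Rplp1 to Rplp2 with them.

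**Figure D3:**
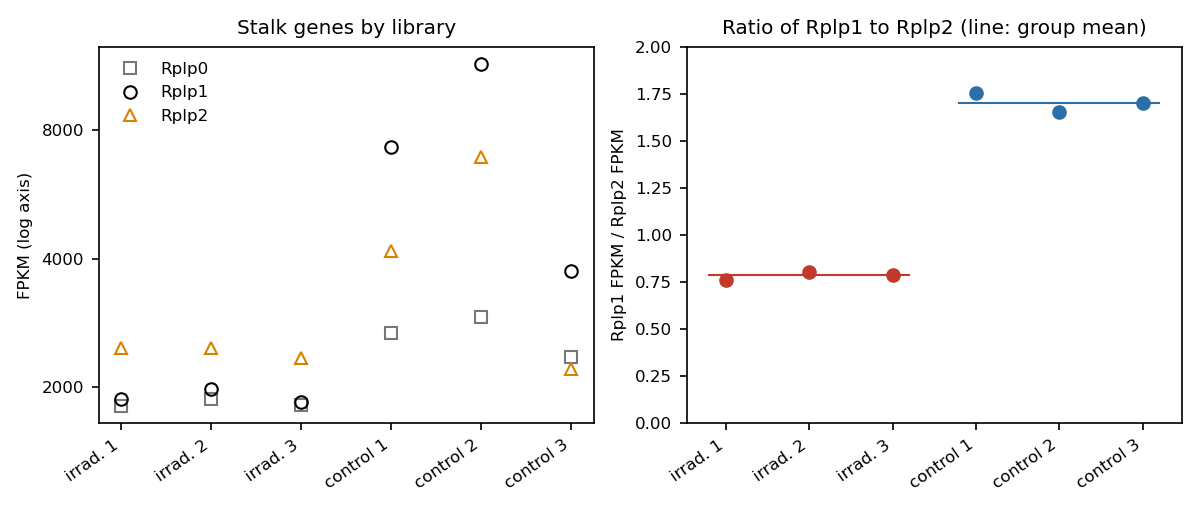
FPKM of Rplp0, Rplp1 and Rplp2 in each library and the ratio of Rplp1 to Rplp2, with irradiated libraries left of controls. The ratio lies between 0.762 and 0.801 in irradiated libraries and between 1.65 and 1.76 in controls, although the controls differ widely in FPKM.

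Rpl5 and Rpl11, which join 5S RNA in the particle that can bind Mdm2, had similar values. Rpl5 had 741, 752 and 757 FPKM in irradiated libraries against 1297, 1473 and 996 FPKM in controls. Rpl11 had 745, 798 and 798 FPKM in irradiated libraries against 1393, 1488 and 1012 FPKM in controls. Both genes lay below every control in every irradiated library, by a log2 fold change of -0.72 for Rpl5 and -0.71 for Rpl11, and both just missed the threshold (limma adjusted p = 0.05001 and 0.0533). The ratio of Rpl5 to Rpl11 was 0.994, 0.942 and 0.949 in irradiated libraries and 0.931, 0.990 and 0.984 in controls (exact permutation p = 1), so their values overlapped within a narrow range.

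Of the other large subunit genes, 7 were called lower. Rpl3, a protein next to the peptidyl transferase centre, had 833, 822 and 851 FPKM in irradiated libraries against 1362, 1311 and 1467 FPKM in controls. Here the controls were close together and control 3 was the highest of them, unlike in most of the 72 genes. Its log2 fold change was -0.72 (SE 0.14; limma adjusted p = 0.0286), and -0.81 against control 3 alone. Rpl10a, of the L1 stalk, had 923, 930 and 925 FPKM in irradiated libraries against 1693, 1854 and 1460 FPKM in controls (-0.84, SE 0.16; limma adjusted p = 0.0254). Rpl36a, an X-linked large subunit gene, had 879, 926 and 925 FPKM in irradiated libraries against 2417, 3364 and 1493 FPKM in controls (-1.34, SE 0.30; limma adjusted p = 0.0386). The irradiated libraries were below every control in each of Rpl3, Rpl10a and Rpl36a, as they were in Rpl13 (-1.10), Rpl9 (-1.06), Rpl34 (-1.01) and Rpl6 (-0.95), which complete the list.

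Other large subunit genes with known roles were lower on average and did not pass the test. Rpl10, which is loaded late in subunit maturation, had 1976, 1948 and 1925 FPKM in irradiated libraries against 3157, 3826 and 2638 FPKM in controls (-0.70, limma adjusted p = 0.0542). Rpl13a, which also has a described part in interferon-dependent control of translation, had 1027, 1038 and 1068 FPKM in irradiated libraries against 1989, 2817 and 1251 FPKM in controls (-0.87, limma adjusted p = 0.0855). Both were below all controls in every irradiated library. Rpl4, which lines the exit tunnel, likewise lay below every control, with 1459, 1472 and 1511 FPKM in irradiated libraries against 2051, 2436 and 1870 FPKM in controls (-0.51, limma adjusted p = 0.0793). Rpl36 had 1203, 1211 and 924 FPKM in irradiated libraries against 3179, 3474 and 1568 FPKM in controls (-1.23, limma adjusted p = 0.0544). It was below every control in each irradiated library, although its irradiated values were less alike than in most genes. Rpl41, which encodes the shortest of these proteins, had 5130, 5644 and 5485 FPKM in irradiated libraries against 10083, 12471 and 5544 FPKM in controls, with control 3 inside the irradiated range (-0.71, limma adjusted p = 0.144).

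Rpl15 and Rpl7a, both large subunit proteins needed for assembly, stood apart at the upper end. Rpl15 had 802, 766 and 799 FPKM in irradiated libraries against 841, 713 and 795 FPKM in controls, and Rpl7a had 1713, 1822 and 1946 FPKM in irradiated libraries against 2008, 1931 and 1873 FPKM in controls. In both the groups overlapped and control 2 was not the highest control. The log2 fold change was 0.01 for Rpl15 (95% interval -0.33 to 0.35; limma adjusted p = 0.946) and -0.09 for Rpl7a (-0.44 to 0.27; limma adjusted p = 0.682). Rpl35 had 4362, 4787 and 4995 FPKM in irradiated libraries against 5980, 7622 and 3854 FPKM in controls, with control 3 below all irradiated libraries. The next highest values were -0.25 for Rpl35, -0.31 for Rpl23a, -0.36 for Rps10 and -0.39 for Rpl29, with limma adjusted p of 0.184 to 0.508.

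In the small subunit, 7 of 29 genes were called lower. Rps6, the substrate of S6 kinase downstream of mTORC1, had 32.3, 24.5 and 28.7 FPKM in irradiated libraries against 82.3, 112 and 56.9 FPKM in controls. All irradiated values were below the lowest control (-1.48, SE 0.25; limma adjusted p = 0.0211). Rps6 was also the lowest of the 72 genes in mean FPKM in both groups, far below their median of 1361 to 1451 FPKM in irradiated libraries. GENCODE names 4 pseudogenes after Rps6, and its level is uncertain. Why it was so low was not tested. Rps27a, made as a fusion with ubiquitin, had 668, 678 and 705 FPKM in irradiated libraries against 1655, 2339 and 1056 FPKM in controls (-1.23, SE 0.29; limma adjusted p = 0.0435). Rps14, which is haploinsufficient in a human myelodysplastic syndrome, had 1434, 1668 and 1659 FPKM in irradiated libraries against 3103, 4050 and 2384 FPKM in controls (-0.97, SE 0.23; limma adjusted p = 0.0432). Rps20 (-1.09), Rps9 (-0.88) and Rps4x (-0.80) were also called lower, each below every control in every irradiated library.

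Rps19, Rps26, Rpsa and Rps3 were below every control in each irradiated library without passing the test. Rps19, the gene most often mutated in human Diamond-Blackfan anaemia, had 879, 949 and 947 FPKM in irradiated libraries against 2280, 3187 and 1353 FPKM in controls (-1.21, SE 0.31; limma adjusted p = 0.0510). Rps26, which sits at the mRNA exit channel, had 5889, 5861 and 5498 FPKM in irradiated libraries against 8259, 9197 and 6227 FPKM in controls (-0.44, limma adjusted p = 0.161). Rpsa, also known as the laminin receptor precursor, had 1526, 1468 and 1515 FPKM in irradiated libraries against 3116, 4664 and 1978 FPKM in controls (-1.03, limma adjusted p = 0.0687). Rps3, which lies at the mRNA entry channel and has a described role in DNA repair, had 352, 382 and 401 FPKM in irradiated libraries against 590, 619 and 437 FPKM in controls (-0.52, limma adjusted p = 0.0870). Just inside the threshold were Rps20 (limma adjusted p = 0.0479) and Rpl6 (0.0471), and just outside it Rpl5 and Rps19.

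The large and small subunits had similar medians. The median log2 fold change was -0.72 over the 43 large and -0.80 over the 29 small subunit genes, a difference of 0.09, and 8 large and 7 small subunit genes were called lower. The summed FPKM of large over small subunit genes was 1.550, 1.555 and 1.546 in irradiated libraries against 1.481, 1.489 and 1.508 in controls, or 1.55 ± 0.0045 and 1.49 ± 0.014 (SD, n = 3 each). The groups did not overlap, and no p is given because the ratio is a score over the genes. Without Rpl41 and the genes whose protein has under 70 residues it was 1.519, 1.519 and 1.515 in irradiated libraries against 1.452, 1.448 and 1.483 in controls.

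After the shared level was removed, a limited set of genes still differed. For this, the median log2(FPKM + 1) of the 72 genes was subtracted from every gene in each library, and limma was run on the same 11103 genes. Relative to the median ribosomal protein gene, 11 genes were lower in irradiated cells, which is 15.3%, against 0.567% of all genes tested, and 7 were higher, which is 9.72%, against 49.7% of all genes tested. In all 18 of these genes the groups did not overlap on this scale. In total, 15 genes lay below all controls, against 1.37% of all genes tested, and 15 above all controls, against 72.0%. The subtraction moved every gene upwards, and the middle value over all genes tested rose from 0.17 to 0.88. Percentages of all genes tested on this scale therefore reflect the centring and give no background for the 72 genes. The lower genes were led by Rplp1 (-1.13, SE 0.20; limma adjusted p = 0.0230), Rps6 (-0.77), Rpl36a (-0.63), Rpl36 (-0.52), Rps27a (-0.51) and Rps19 (-0.50), and Rpl13, Rpl9, Rpl34 and Rps14 were also among them.

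The higher genes relative to the median were Rpl15 (0.72, SE 0.22; limma adjusted p = 0.0405), Rpl7a (0.63), Rpl35 (0.46), Rps10 (0.36), Rpl29 (0.32), Rps26 (0.27) and Rpl19 (0.22). Rpl35, a protein at the exit tunnel, had 1.68, 1.72 and 1.80 log2 units above the library's median gene in irradiated libraries, against 1.28, 1.38 and 1.16 in controls. Rps10, a protein of the small subunit head, had 0.82, 0.82 and 0.80 in irradiated libraries against 0.47, 0.38 and 0.52 in controls. In Rpl35 and Rps10 the controls were closer together on this scale than in FPKM, whereas in Rpl15 (-1.55, -2.04 and -1.12 in controls) and Rpl7a (-0.30, -0.60 and 0.12 in controls) they were farther apart. Leaving out any irradiated library or control 1 left 0 calls by limma in either direction (14 or 15 genes had an unadjusted p under 0.05). Leaving out control 3 gave 26 lower and 11 higher. In that fit 2.31% and 86.3% of all genes tested were called, percentages that again reflect the centring. As the calls changed with single libraries, the size of the set is not settled by 3 against 3.

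**Figure D4:**
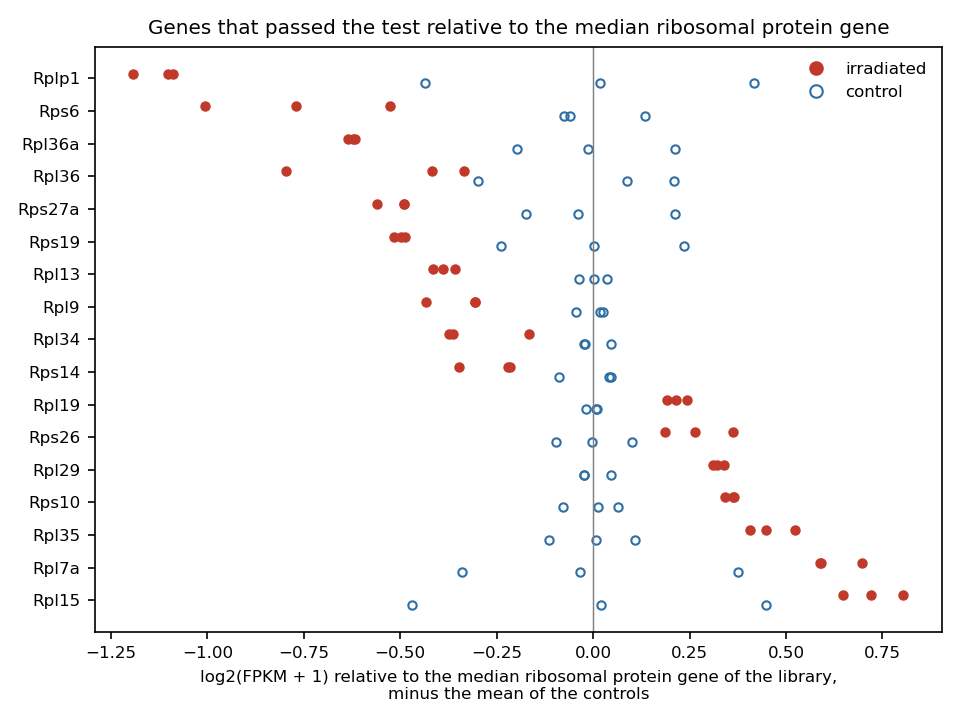
For 17 of the 18 genes called after centring, each point is 1 library, placed on the x axis by its log2(FPKM + 1) minus the median of the 72 genes in that library and minus the mean of the controls, with irradiated above control in each row. The groups separate in every gene drawn, with mean differences from -1.13 at Rplp1 to 0.72 at Rpl15.

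The start sites of these genes are shown because the pyrimidine tract at the 5' end is the element through which their mRNAs are regulated together. Windows of 60 bases, from 40 before to 20 after the RefSeq start on GRCm38.p6, are given in the 5' to 3' direction of the gene, with capitals marking the word CTTTCC, the word CTCTTT or the word CTTCCT. Rps6 (chr4:86857348-86857407, minus strand), Rpl5 (chr5:107900488-107900547, plus strand) and Rplp2 (chr7:141447611-141447670, plus strand) stand for genes with a lower mean. For Rpl5 the start used lies downstream of the gene's first RefSeq base, chr5:107900508, where the marked word begins. Rps10 (chr17:27635225-27635284, minus strand), Rpl35 (chr2:39005112-39005171, minus strand) and Rpl15 (chr14:18270967-18271026, minus strand) were higher relative to the median gene. The means of Rps10 (log2 fold change -0.36) and Rpl35 (-0.25) were nevertheless also lower in irradiated cells. Relative to the median gene, Rpl5 and Rplp2 were both at -0.01 and were not called. The windows are thus not a lower and a higher group on 1 scale. Rpl36a (chrX:134585614-134585673, plus strand) was called lower and holds none of the 3 words in the window shown, although CTTTCC and CTCTTT lie within 50 bases of its start. The same windows of Rpsa, Rpl11, Rpl41, Rpl10, Rplp0, Rps3 and Rpl7a, not printed, also hold none of the words. The windows printed are therefore no sample of how often the words occur.
Rps6: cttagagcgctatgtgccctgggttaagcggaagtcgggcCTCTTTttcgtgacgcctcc
Rpl5: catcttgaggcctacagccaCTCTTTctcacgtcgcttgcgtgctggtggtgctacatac
Rplp2: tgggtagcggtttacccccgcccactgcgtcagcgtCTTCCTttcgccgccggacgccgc
Rpl36a: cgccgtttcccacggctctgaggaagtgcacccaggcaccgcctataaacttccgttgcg
Rps10: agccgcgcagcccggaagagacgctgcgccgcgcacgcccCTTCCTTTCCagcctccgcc
Rpl35: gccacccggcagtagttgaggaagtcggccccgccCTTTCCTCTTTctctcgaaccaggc
Rpl15: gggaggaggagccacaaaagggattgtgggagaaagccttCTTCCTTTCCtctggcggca

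Pyrimidine words were common near the starts of these genes, and the medians with and without them were close. A word in the range searched need not lie at the first base of the mRNA. A match therefore need not be the tract itself. Of the 52 genes with an entry in the RefSeq promoter table, 34 (65.4%) held at least 1 of these 3 words on the gene's strand within 50 bases either side of the start, against 15.4% of the 8952 tested genes with an entry. The words can overlap one another, as in Rps10, Rpl35 and Rpl15, and were chosen after sequences of these genes had been read. The median log2 fold change was -0.79 in the 34 genes with a match and -0.71 in the 18 without. CCGGAAG, searched on both strands of the 300 bases in the table, was in 40.4% of the 52 genes against 21.8% of tested genes, with medians of -0.71 with it and -0.78 without. AAGATGGC on both strands was in 5.77% (3 of 52 genes) against 5.67%. TATAAA on the gene's strand within 50 bases of the start was in 7.69% (only 4 of 52 genes) against 2.28%. Rplp1, which fell most, is among the genes with no entry.

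The 72 genes lie on 19 chromosomes, 14 of them on chromosome 7, and most have short transcripts (range 364 to 5130 bases). Their median transcript length in GENCODE was 774.5 bases, against 2810.5 bases over all genes tested, and short genes in general had lower values in irradiated cells. Other tested genes had a median log2 fold change of -0.33 below 600 bases, -0.37 from 600 to under 800 bases and -0.35 from 800 to under 1000 bases, and 0.36 from 3000 bases. In the first 3 classes the ribosomal protein genes had medians of -0.82, -0.72 and -0.71. Against control 3 alone the same order was much weaker, with medians of the other genes of 0.00 in the shortest and 0.10 in the longest class, while the median of the 72 genes was -0.27. With a trend of length and GC content removed from each library, the median of the 72 genes was -0.40, and 22 were called lower, 12 of them among the 15, against 4.39% of all genes tested called lower. Abundant genes outside the set also had a negative median: 65 other genes at 1000 FPKM or more had a median of -0.44, against -0.75 for the 66 ribosomal protein genes at that level. The part of transcript length and of the control libraries in the lower values of the 72 genes was not tested beyond these values.

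**Figure D5:**
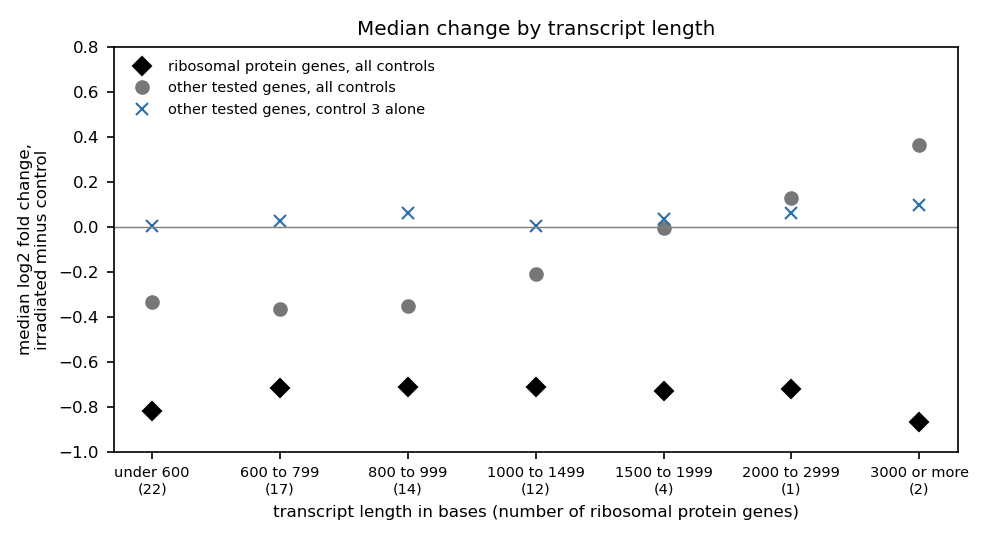
Median log2 fold change, irradiated minus control, by transcript length class for ribosomal protein genes and other tested genes against all controls, and for other genes against control 3 alone. Ribosomal protein genes lie below other genes in each class, and the slope of the other genes with length, from -0.33 in the shortest to 0.36 in the longest class, is much smaller against control 3, from 0.00 to 0.10.

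Within the 72 genes the log2 fold change followed neither length nor level closely. Across the 72 genes, which share libraries, Pearson's r of the log2 fold change was 0.15 with log2 transcript length, 0.03 with GC content and 0.14 with mean level. The 27 genes that hold a snoRNA had a median of -0.74, and the 45 without had -0.72. GENCODE names 288 pseudogenes after 56 of the 72 genes, so reads of a ribosomal protein gene may have been assigned to a copy, and the levels of genes with many copies are uncertain. After Rps6, the lowest genes were Rps15a, with a mean of 57.2 FPKM in irradiated and 91.6 FPKM in control cells, and Rps20, with a mean of 112 FPKM in irradiated and 249 FPKM in control cells. The principal GENCODE transcript is 5130 bases long for Rps15a and 3706 bases for Rps20, and the sources used here do not give the transcripts behind the deposited FPKM.

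The order of the genes by level was nearly fixed among irradiated libraries. Pearson's r of the 72 log2 levels between libraries was 0.997 to 0.998 among irradiated libraries, 0.946 to 0.988 among controls and 0.936 to 0.981 between the groups. The most abundant were Rps26 (5749 FPKM), Rpl41 (5419 FPKM) and Rpl38 (5268 FPKM) in irradiated cells, and Rpl38 (11875 FPKM), Rpl41 (9366 FPKM) and Rps15 in controls. Rplp1 ranked 23 of 72 in irradiated cells and 6 of 72 in control cells.

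Other genes of the ribosome and its control were compared by lists. Fau, which encodes a small subunit protein fused to a ubiquitin-like domain, had 1261, 1526 and 1455 FPKM in irradiated libraries against 3217, 4805 and 1886 FPKM in controls. It was below every control in each irradiated library and did not pass the test (-1.13, limma adjusted p = 0.0684). The lists below are read against a median log2 fold change of 0.17 over all genes tested, of which 2.77% were called lower and 9.24% higher. Of 8 elongation factors, 0 were called by limma (2 had an unadjusted p under 0.05; median -0.41), and the smallest p values belonged to Eef1b2 (-0.77) and Eef1d (-0.98). Of 15 other mRNAs of the oligopyrimidine class, 2 were lower, Eif4b (-0.65), which helps unwind mRNA leaders, and Tpt1 (-0.74), a growth-related protein, and the list's median was -0.05. Of 35 ribosome assembly factors, 0 were called lower by limma (6 had an unadjusted p under 0.05 in that direction) and 2 were higher, Sbds (0.71) and Riok2 (0.60), which act late in subunit maturation (median -0.24). Of 29 RNA polymerase I and nucleolar genes, 0 were called by limma (3 lower and 2 higher had an unadjusted p under 0.05; median -0.18), with Utp20 at 0.55 and Nop58 at -0.52. Among 18 regulators of the translation of these mRNAs, 1 was called lower and 1 higher (median 0.11, 9 negative). Rps6kb1, the S6 kinase that phosphorylates Rps6, was the gene called higher (1.02, limma adjusted p = 0.0321). It had 25.3, 23.3 and 26.6 FPKM in irradiated libraries against 11.3, 9.05 and 16.1 FPKM in controls. Cnbp, which binds oligopyrimidine mRNAs, was lower (-0.66). Of a separate list of 14 snoRNA host genes, 0 were found by name among the 17030 genes, so that list could not be analysed.

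Most markers of the labelled cell type were low. Of 8 squamous genes, Krt5, Krt6a, Cdh1 and Epcam were at most 0.22 FPKM in every library, Krt14 and Krt17 at most 0.49 FPKM, Trp63 at most 0.21 FPKM in irradiated and 1.1 FPKM in control libraries, and Sfn 1.79 to 2.27 FPKM in irradiated and 1.98 to 5.07 FPKM in control libraries. The 8 summed to 3.04 to 3.35 FPKM in irradiated and 3.43 to 6.05 FPKM in control libraries. The 4 fibroblast genes Pdgfra, Col1a1, Col3a1 and Dcn summed to 104 to 124 FPKM in irradiated and 72.1 to 101 FPKM in control libraries. Col1a1 (40.6 to 53.2 FPKM in irradiated and 17.9 to 19.4 FPKM in control libraries) and Dcn (4.12 to 7.26 FPKM in irradiated and 0.94 to 1.28 FPKM in control libraries) were higher in every irradiated library, Col3a1 was lower (27.7 to 32.4 FPKM in irradiated and 33.4 to 45.2 FPKM in control libraries), and Pdgfra overlapped. The part of these markers in the ribosomal protein result was not tested. The 3 leukocyte genes measured summed to 4.04 to 5.72 FPKM in irradiated and 2.11 to 4.52 FPKM in control libraries, nearly all of it Cd68 (4.01 to 5.63 FPKM in irradiated and 2.11 to 4.52 FPKM in control libraries), while Ptprc was at most 0.03 FPKM in irradiated libraries and 0 in controls. The 3 endothelial genes summed to 0.22 to 0.49 FPKM in irradiated and 0.36 to 0.62 FPKM in control libraries.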

How the data were processed

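RNA of 6 SCC7 samples was measured as FPKM, which the authors deposited for 17030 genes, per the file headers. The submitters' processing notes name HISAT and GRCm38.p6; the sources used here do not give the counting tool, strand use or annotation. FPKM holds no read depth, so no interval that needs depth is given, and no count model was used. The filter required 1 FPKM or more in 3 or more libraries. The test was limma 3.58.1 (R 4.3.3) on log2(FPKM + 1) values (2 groups, eBayes with trend and robust options, Benjamini-Hochberg over 11103 genes); the pseudocount understates changes of low genes. A second fit subtracted each library's median of the 72 genes. The procedure was tested on simulated data with 10932 genes, each drawn independently of the others. It recovered 44% of 2-fold and 83% of 4-fold changes and called 9 unchanged genes. The simulation held no shift shared by many genes of a library, as the controls have. It therefore gives no error rate for such shifts. Named genes were those of set roles in the ribosome, the 6 with the most negative and the 6 with the highest log2 fold change, those called in the second fit, and from each other list the 2 with the smallest p; Rps20, Rpl6 and others stand as calls or neighbours of the threshold. The genes, the lists and the ratios were chosen with earlier results of these data known. Alternatives covered scaling, filter, pseudocount, moderation, group variances, a replicate block, length and GC content, and single libraries left out. Sequences and coordinates are from RefSeq on GRCm38.p6, lengths from GENCODE on the same build. Values of some genes are not reported here.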

Additional observations from a re-analysis of the deposited data

How the results depend on the processing

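The median of the 72 genes was negative under all 16 alternatives. It was -0.98 to -0.57 when single libraries were left out, -0.22 after quantile normalization, -0.40 with length and GC content removed and -0.27 with control replicate 3 as the only control. Quantile normalization and the trimmed mean moved the median of all genes from 0.17 to -0.02 and -0.01, and the calls over all genes from 1026 higher and 308 lower to 645 and 601, and 675 and 476. The 15 genes called lower (2.77% of all genes) became 11 after quantile normalization (5.41%), 11 with the trimmed mean (4.29%), 10 with no filter (1.37%), 11 with a filter at 5 FPKM (2.49%), 13 with a pseudocount of 0.1 (2.37%), 22 with length and GC content removed (4.39%), 23 without the trend and robust options (3.31%), 41 with a variance for each group (4.4%), 41 with control replicate 3 as the only control (14.4%, and 2 higher, Rpl35 and Rpl31, with the lone control assumed to vary like the irradiated libraries) and 0 to 70 when single libraries were left out. The genes called relative to the median gene, 11 lower and 7 higher, became 3 and 0 without the trend and robust options (10 genes had an unadjusted p under 0.05), 4 and 3 with a variance for each group, 7 and 10 with length and GC content removed, 16 and 14 with control replicate 3 alone, and 0 to 26 lower and 0 to 11 higher when single libraries were left out. The causes were not tested.

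Sample numbers did not pair the libraries: correlations of same-numbered deviations were -0.115, 0.02 and -0.159, and no sample correlated best with its own number. With the number as a replicate block, limma called 0 of the 72 genes lower (49 had an unadjusted p under 0.05), and 40 lower and 260 higher over all genes. Relative to the median gene, 8 of the 72 were lower and 4 higher, against 0.378% and 35.9% of all genes tested. These percentages of all genes reflect the centring on the 72 genes.

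Single genes changed sign as follows. After quantile normalization the log2 fold change was 0.037 for Rpl4, 0.26 for Rpl23a, 0.25 for Rps26, 0.080 for Rpl19, 0.48 for Rpl7a, 0.067 for Rplp0, 0.15 for Rpl29, 0.23 for Rpl35, 0.15 for Rps10, 0.041 for Rpl31 and 0.061 for Rps18. With length and GC content removed it was 0.094 for Rpl23a, 0.29 for Rpl7a, 0.14 for Rpl29, 0.21 for Rpl35, 0.15 for Rps10 and 0.10 for Rpl31. With control replicate 3 as the only control it was 0.14 for Rplp2, 0.059 for Rpl29, 0.29 for Rpl35, 0.0048 for Rps10, 0.24 for Rpl31, 0.14 for Rpl28, 0.038 for Rps29 and -0.011 for Rpl15. Rpl15 was at -0.19 with the trimmed mean and -0.052 to 0.067 when single libraries were left out, negative without control replicate 2. Depth is unknown, so its limit on single genes could not be given.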
